A study of Homo sapiens with 10 samples.

Results

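The human kinesin genes were defined here as the protein-coding RefSeq genes (GRCh38) whose symbol is KIF followed by a number and optional letters, together with KIFC1, KIFC2 and KIFC3. This rule found 42 of 20033 protein-coding genes, and it left out KIFBP and KIFAP3, which encode kinesin-binding proteins. The data were lists of summits, the points of highest signal within called peaks, from ChIP-seq, which sequences the DNA that comes down with a protein. The cells were HEK293T, a line from human embryonic kidney in which the SV40 large T antigen is expressed. An antibody against WDR5, a WD40-repeat subunit of the histone H3 lysine 4 methyltransferase complexes, was used on EMBOW knockout (KO) cells and on wild-type (WT) cells. Anti-FLAG beads were used on cells that stably expressed EMBOW-FH, a tagged form of the microprotein, and that list is called EMBOW-F. Nuclei had been digested with micrococcal nuclease in every case. The sources used here do not say how the knockout was made or from how many clones. Each list came from 1 library, so no comparison has a replicate check, no test was made, and intervals cover counting error only. The KO list held 21055 summits, the WT list 17660 and the EMBOW-F list 93143. No list measures EMBOW in the WDR5 samples, so none of them checks the knockout.

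Kinesins are motor proteins that use ATP to walk along microtubules or to take microtubule ends apart. Mitotic kinesins build the spindle, move chromosomes and complete cytokinesis, and their genes are mostly transcribed in cells that divide. Transport kinesins carry vesicles, organelles and ciliary cargo, many of them in neurons, and further members regulate cilia, microtubule growth or signalling. WDR5 protein has been reported to act with KIF2A protein at the spindle, which is the mitotic role named in the series title. The lists describe WDR5 on DNA at the kinesin genes, not on the spindle.

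A gene was counted as marked when a summit lay within 1 kb of either of its ends. In KO 29 of the 42 kinesin genes were marked (69.0%, exact 95% interval 52.9 to 82.4%), against 53.4% of all protein-coding genes. In WT the count was also 29 (69.0%, 52.9 to 82.4%), against 50.0% of all protein-coding genes. Both lists marked the same 27 genes (64.3%, 48.0 to 78.4%), against 46.4% of all genes, and neither list marked 11 of them. KIF2C and KIF21B had a summit in KO alone, which is 4.76% of the kinesins (0.582 to 16.2%) against 6.99% of all genes. KIF3C and KIF13B had one in WT alone, again 4.76% (0.582 to 16.2%), against 3.51% of all genes. The intervals of these single-genotype counts contain the shares of all genes. The interval of the marked share contains 53.4% in KO and lies above 50.0% in WT. The kinesin count and its interval are the same in both lists, so this contrast comes from the shares of all genes alone. Genes are not replicates, and the kinesins were chosen with earlier results of these data known, so the intervals are not a test. The EMBOW-F list marked 0 of the 42 genes, which allows a share of up to 7.14%, against 1.40% of all genes. With a 2 kb window 31 kinesins were marked in KO, against 57.0% of all genes, and 31 in WT, against 53.4%. Of these, 29 were marked in both lists (50.4% of all genes), 2 in KO alone (6.58%) and 2 in WT alone (2.94%), and EMBOW-F again marked 0 (2.25%). The 2 in KO alone were then KIF21B and KIF12, and KIF2C was marked in both lists. KIF12 entered through a KO summit with a −log10 q of 1.63, near the lowest score of the KO list, 1.30. Those in WT alone were again KIF3C and KIF13B.

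**Figure D1:**
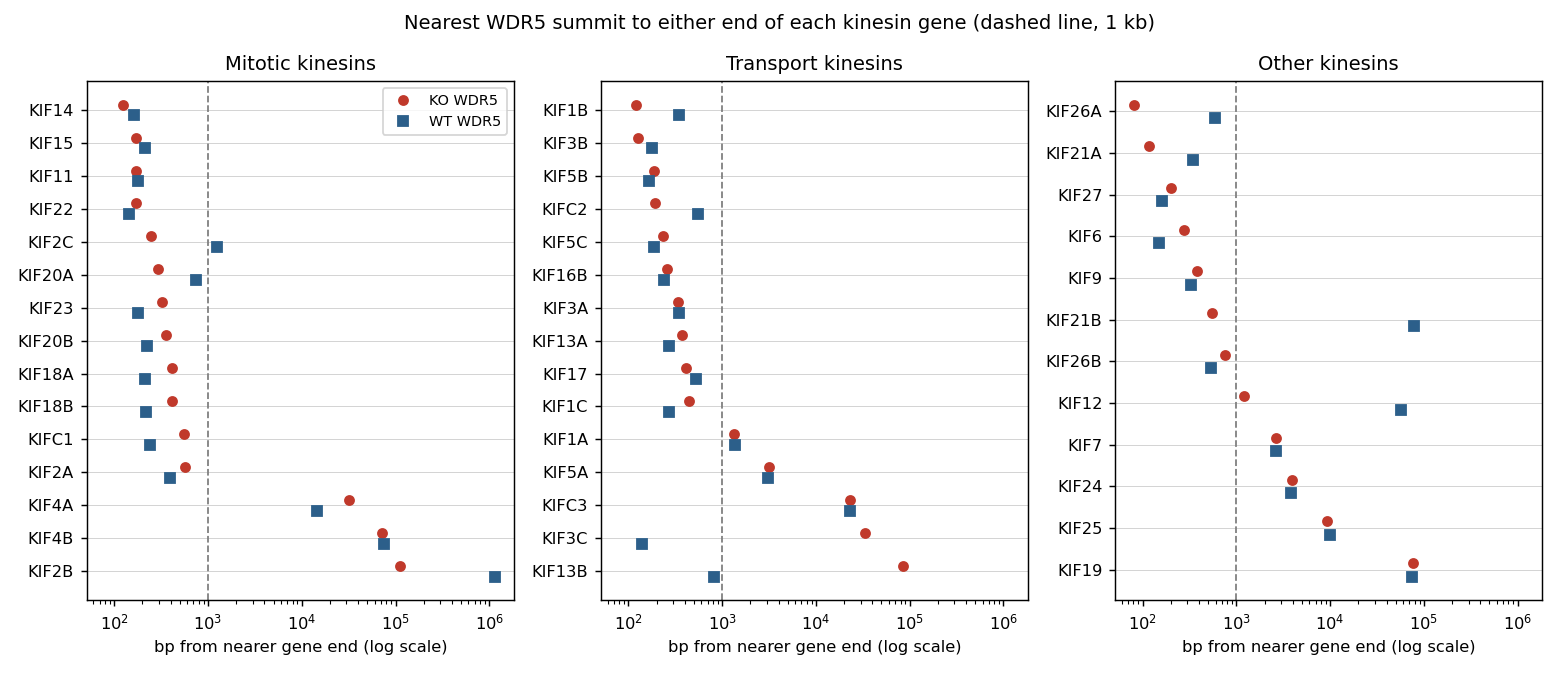
Distance in bp (log axis) from the nearer end of each kinesin gene to the nearest KO (circles) and WT (squares) WDR5 summit, in panels for 15 mitotic, 15 transport and 12 other kinesins. Most circles and squares lie left of the 1 kb line together, and KIF2C, KIF21B, KIF3C and KIF13B have only 1 symbol left of it.

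KIF2A, KIF2B and KIF2C encode kinesins that depolymerise microtubule ends, and each had a different WDR5 pattern. KIF2A (chromosome 5, 62306206 to 62391025, plus strand) serves at spindle poles and in neurons. It carried 2 KO summits around its 5′ end. The KO summit at 62306778 lay 572 bp inside the gene and had a −log10 q of 22.8 (rank 1553 of the KO list), and the KO summit at 62305529 lay 677 bp upstream with 3.35 (rank 16555). In WT the summit at 62306864 lay 658 bp inside the gene with a −log10 q of 20.8 (rank 1359 of the WT list), and the WT summit at 62305809 lay 397 bp upstream with 8.67 (rank 6467). The higher summits of the genotypes were 86 bp apart and the upstream ones 280 bp apart, so both lists held a strong summit inside the gene and a weaker one upstream. WT held further summits outside the 1 kb window, upstream at 62305000 and inside the gene at 62307796, with −log10 q values of 2.57 and 4.97.

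KIF2C (chromosome 1, 44739837 to 44767767, plus strand), the centromeric depolymerase also called MCAK, was marked in the KO list alone. The KO summit at 44740084 lay 247 bp inside the gene with a −log10 q of 7.02 (rank 9594), and a weak KO summit of 1.76 lay 506 bp upstream. The nearest WT summit, at 44738585, lay 1252 bp upstream with a −log10 q of 1.78 (rank 17218), which is close to the lowest score in the WT list, 1.31. A weak summit was thus called upstream of KIF2C in both genotypes, 746 bp apart, and the one inside the gene was called in KO. With a 2 kb window KIF2C counted as marked in both lists.

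KIF2B (chromosome 17, 53822927 to 53825193, plus strand), a kinetochore depolymerase, had no WDR5 summit near it. The nearest KO summit lay 112213 bp from an end of the gene and had a score of 2.13, and the nearest in WT lay 1143325 bp away. With a q of 1e-05 or less the KO distance was 1143313 bp, close to that in WT. KIF2B was instead the kinesin with the nearest EMBOW-F summit, at 53846292, 21099 bp beyond its 3′ end, with a −log10 q of 4.51 (rank 17404 of the EMBOW-F list). At the stricter q that distance was 567635 bp.

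The promoters of the KIF2 genes are shown as the sequence beside which the summits above were placed. They run from 250 bases before to 50 bases after the start site, on the plus strand of GRCh38.p14, from RefSeq. The windows are chr5:62305956-62306255 for KIF2A, chr17:53822677-53822976 for KIF2B and chr1:44739587-44739886 for KIF2C. Capitals mark matches, on either strand, to the GC box GGGCGG, the cell cycle genes homology region (CHR) TTTGAA, the CCAAT box, the E2F-like TTTNNCGC and the E-box CACGTG.
KIF2A: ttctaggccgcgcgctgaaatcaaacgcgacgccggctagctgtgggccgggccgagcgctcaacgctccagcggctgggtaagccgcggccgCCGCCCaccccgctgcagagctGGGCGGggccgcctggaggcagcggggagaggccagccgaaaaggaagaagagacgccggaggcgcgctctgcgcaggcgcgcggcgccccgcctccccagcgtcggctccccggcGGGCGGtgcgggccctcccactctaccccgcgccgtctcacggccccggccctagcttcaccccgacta
KIF2B: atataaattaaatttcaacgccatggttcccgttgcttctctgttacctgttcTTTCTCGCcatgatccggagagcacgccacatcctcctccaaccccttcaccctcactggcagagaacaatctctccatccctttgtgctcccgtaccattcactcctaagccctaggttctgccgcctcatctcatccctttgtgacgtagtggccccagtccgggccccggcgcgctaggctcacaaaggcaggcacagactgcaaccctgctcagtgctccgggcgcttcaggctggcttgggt
KIF2C: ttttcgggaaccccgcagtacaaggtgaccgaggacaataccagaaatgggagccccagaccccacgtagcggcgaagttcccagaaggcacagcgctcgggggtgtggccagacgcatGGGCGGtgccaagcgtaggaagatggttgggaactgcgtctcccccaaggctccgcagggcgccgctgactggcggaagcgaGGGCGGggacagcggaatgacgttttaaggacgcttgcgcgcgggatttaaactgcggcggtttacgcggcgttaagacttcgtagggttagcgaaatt
The G and C content was 75.7% at KIF2A, 56.7% at KIF2B and 61.3% at KIF2C. The KIF2A window held 43 CpG dinucleotides, the KIF2B window 14 and the KIF2C window 31. None of the 3 windows held a CHR or CCAAT match, the capitals in KIF2B mark an E2F-like match, and no summit of KO or WT fell inside any of them.

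**Figure D2:**
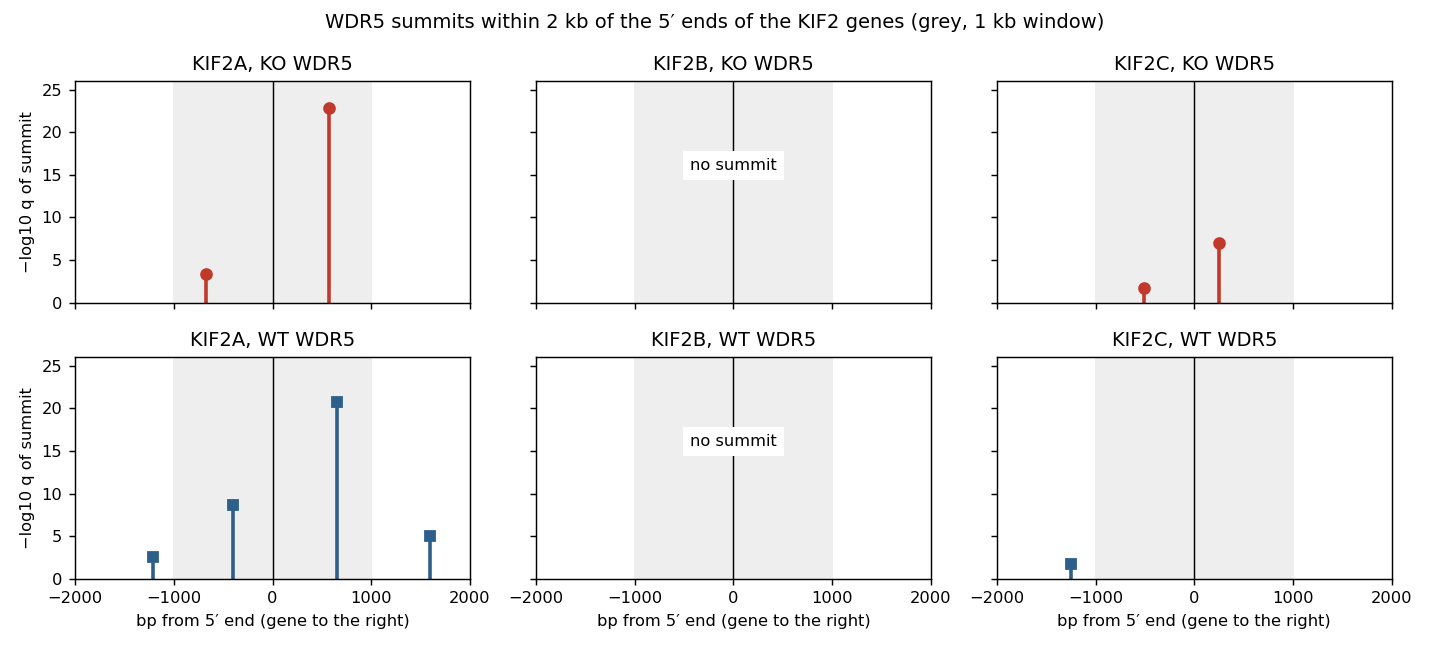
WDR5 summits within 2 kb of the 5′ ends of KIF2A, KIF2B and KIF2C in KO (top) and WT (bottom). The x axis gives bp from the 5′ end with the gene to the right, and the height is the −log10 q of the summit within its own list. KIF2A has a tall summit inside the gene in both rows, KIF2B has none, and KIF2C has one inside the gene in KO.

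Of the 15 mitotic kinesins, 12 were marked in KO (80.0%, 51.9 to 95.7%) and 11 in WT (73.3%, 44.9 to 92.2%). These genes held the 5 highest-ranked kinesin summits of the KO list. KIF22, a chromosome-arm motor, led with a KO summit at chromosome 16, 29790933, 182 bp inside the gene, with a −log10 q of 29.9 (rank 850). Its WT partner lay 38 bp away with 14.6 (rank 2930). KIF23, the motor of the centralspindlin complex in cytokinesis, had a KO summit at chromosome 15, 69414676, with 27.3 (rank 1035) and a WT summit 148 bp away with 16.1 (rank 2401). KIFC1, a minus-end motor that gathers spindle poles, had KO and WT summits 1 bp apart, with −log10 q values of 25.3 in KO (rank 1223) and 10.04 in WT (rank 5400). KIF2A and KIF18B, a motor of astral microtubule ends, completed the 5, and KIF18B had a −log10 q of 22.1 in KO (rank 1669) and 11.3 in WT (rank 4623). Each of these 5 genes was marked in both genotypes at 1 kb. In the WT list the 5 highest-ranked kinesins were KIF2A (rank 1359), KIF13A (1981), KIF23 (2401), KIF22 (2930) and KIF5B (3524). Of these, KIF13A and KIF5B are transport kinesins. With a 500 bp window KIF2A and KIFC1 counted as marked in WT alone, since their nearest KO summits lay 572 bp and 549 bp from the end.

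The remaining mitotic kinesins had lower summits. KIF11, the motor that pushes spindle poles apart, had a KO summit of 16.8 (rank 2963) and a WT summit 12 bp away of 5.59 (rank 10363). KIF14, needed in cytokinesis, had 15.8 in KO and 7.83 in WT, 40 bp apart. KIF15, which can take over from KIF11, had its highest summits at 6.62 in KO and 4.97 in WT. It shares its promoter region with KIAA1143, whose end lay 142 bp from that WT summit. KIF20B, a cytokinesis motor, had 7.50 in KO and 2.93 in WT at its 5′ end, and a further KO summit of 11.3 lay 2317 bp inside the gene. KIF18A, which aligns chromosomes, had 4.39 in KO and 3.43 in WT, near the end of METTL15. KIF20A, which moves the chromosomal passenger complex, had a KO summit of 7.50 and a WT summit of 4.88 that lay 25 bp apart, 770 bp and 745 bp outside the gene. Both were nearer to BRD8, and the KO summit inside KIF20A, 293 bp from its 5′ end, had a −log10 q of 3.39.

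KIF4A and KIF4B, which encode near-identical chromosome-associated motors, were marked in neither list. The nearest summit to KIF4A, on chromosome X, lay 31654 bp away in KO and 14506 bp away in WT, and that to KIF4B, on chromosome 5, lay 72510 bp away in KO and 75703 bp away in WT. Their promoters are shown because they share sequence, at chrX:70289854-70290153 and chr5:155013505-155013804 on the plus strand, beside those of the marked KIF22 (chr16:29790501-29790800) and KIF23 (chr15:69414099-69414398), also on the plus strand.
KIF4A: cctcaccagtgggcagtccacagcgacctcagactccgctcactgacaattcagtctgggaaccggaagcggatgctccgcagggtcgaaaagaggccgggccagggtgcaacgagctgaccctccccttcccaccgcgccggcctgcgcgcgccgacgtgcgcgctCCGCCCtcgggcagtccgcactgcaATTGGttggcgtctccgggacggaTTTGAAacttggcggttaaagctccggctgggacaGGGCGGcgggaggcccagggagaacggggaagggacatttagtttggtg
KIF4B: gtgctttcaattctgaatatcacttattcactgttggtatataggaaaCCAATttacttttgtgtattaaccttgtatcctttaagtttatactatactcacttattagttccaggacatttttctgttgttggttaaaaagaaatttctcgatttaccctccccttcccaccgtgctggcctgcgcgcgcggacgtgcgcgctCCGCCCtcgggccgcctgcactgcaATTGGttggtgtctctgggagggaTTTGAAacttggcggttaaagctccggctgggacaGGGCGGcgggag
KIF22: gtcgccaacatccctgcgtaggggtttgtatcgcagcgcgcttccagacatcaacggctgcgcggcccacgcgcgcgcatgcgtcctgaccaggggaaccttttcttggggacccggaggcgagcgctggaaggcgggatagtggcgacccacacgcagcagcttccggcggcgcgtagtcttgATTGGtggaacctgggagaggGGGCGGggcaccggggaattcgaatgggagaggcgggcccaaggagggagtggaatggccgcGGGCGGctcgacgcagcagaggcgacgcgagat
KIF23: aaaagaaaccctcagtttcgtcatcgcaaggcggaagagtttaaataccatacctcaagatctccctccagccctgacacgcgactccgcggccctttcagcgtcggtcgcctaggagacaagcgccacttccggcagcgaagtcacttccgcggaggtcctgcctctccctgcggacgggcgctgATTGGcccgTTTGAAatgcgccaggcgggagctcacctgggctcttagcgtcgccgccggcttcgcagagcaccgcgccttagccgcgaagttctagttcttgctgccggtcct
Bases 120 to 263 of the KIF4A window aligned with bases 157 to 300 of the KIF4B window without a gap, and 135 of these 144 bases (93.8%) were the same. Only these 300-base windows were compared, not the whole stretch within 1 kb of the ends. Reads from similar copies can be hard to assign, and how reads were assigned here was not examined. The cause of the lack of a summit at KIF4A and KIF4B was not tested.

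Of the 15 transport kinesins, 10 were marked in KO (66.7%, 38.4 to 88.2%) and 12 in WT (80.0%, 51.9 to 95.7%). KIF13A, a vesicle motor, held the highest-ranked of their summits in each list, with a −log10 q of 19.7 in KO (rank 2147) and 17.7 in WT (rank 1981), 10 bp apart. KIF5B, the conventional kinesin heavy chain of most tissues, had 7.22 in KO (rank 9318) and 13.2 in WT (rank 3524), 21 bp apart. KIF5C, a neuronal heavy chain, had 9.17 in KO and 9.89 in WT, and KIF5A, the other neuronal one, had its nearest summits 3149 bp outside the gene in KO and 3052 bp outside in WT. The subunits of heterotrimeric kinesin differed. KIF3A had 8.29 in KO and 10.04 in WT, 9 bp apart, and KIF3B had 14.1 in KO and 7.71 in WT, 51 bp apart. KIF3C, the alternative partner of KIF3A, had no KO summit within 33210 bp of an end, against a weak WT summit of 2.57 (rank 15898) that lay 138 bp upstream. KIF13B, a relative of KIF13A, likewise had its nearest KO summit 85414 bp from an end, against a WT summit of 3.34 (rank 14429) 825 bp inside an end.

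Among the other transport motors, KIF1B had a best summit of 13.4 in KO and 11.04 in WT, and KIF16B, an endosome motor, 9.75 in KO and 6.76 in WT. KIF1C had 8.51 in KO and 8.34 in WT inside the gene, 173 bp apart, and a further KO summit of 9.42 lay 761 bp outside it, nearer to INCA1. KIF17, a ciliary and dendritic motor, had its highest summits beyond its 3′ end, at 19.3 in KO and 12.4 in WT, and these lay nearer to DDOST. At its own 5′ end KIF17 had 7.85 in KO and 10.2 in WT. KIFC2 had 8.93 in KO and 7.70 in WT, and the WT summit lay nearer to TMEM276. KIF1A, the motor of synaptic vesicle precursors, lay just outside the window, with summits 1337 bp inside the gene in KO (9.32) and 1365 bp inside in WT (2.25). KIFC3 was not marked, and its nearest summits lay 23341 bp away in KO and 23148 bp away in WT.

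Of the 12 other kinesins, 7 were marked in KO (58.3%, 27.7 to 84.8%) and 6 in WT (50.0%, 21.1 to 78.9%). KIF27 had 14.9 in KO and 12.6 in WT, 39 bp apart. KIF21A, which restrains microtubule growth, had 12.8 in KO and 8.03 in WT. KIF6 had 10.3 in KO and 9.66 in WT, and KIF9, a motor of motile cilia, had 5.79 in KO and 6.30 in WT. KIF26A, which lacks motor activity, had 15.2 in KO (rank 3552) and 2.85 in WT (rank 15259), 59 bp apart, and its relative KIF26B had 4.74 in KO and 3.43 in WT. KIF21B had a KO summit of 7.04 (rank 9505) 549 bp inside an end, and in WT the nearest lay 78091 bp from an end. KIF12 lay just outside the window in KO, with a summit of 1.63 placed 1203 bp inside the gene, and in WT the nearest lay 57060 bp from an end. KIF19, a ciliary depolymerase, and KIF25 had no summit within 5 kb of an end in either list.

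For KIF24, a centriolar kinesin that holds back cilium formation, and KIF7, a regulator of Hedgehog signalling in cilia, the gene ends missed the summits. The RefSeq promoter table places the start site of KIF24 4403 bp inside the gene. A KO summit lay 152 bp from this start and a WT summit 345 bp from it. These had scores of 8.30 in KO and 10.04 in WT. The highest summits inside KIF24 lay 50 bp apart, 3928 bp from the end in KO with a −log10 q of 11.3 and 3878 bp from it in WT with 23.0 (rank 1093). That WT score was above those of all kinesin gene-end summits in the WT list. KIF7 has its tabulated start 7582 bp inside the gene, with a KO summit 289 bp and a WT summit 109 bp from it. Counting tabulated start sites as well as gene ends can only add genes. This choice, made after seeing the data, gave 31 marked kinesins in KO, against 55.5% of all genes, and 31 in WT, against 52.0%. The tabulated start of KIF5C lies 72648 bp inside the gene, away from its gene-end summits. The nearest summits lay 71785 bp from that start in KO and 71299 bp from it in WT.

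Mitotic and transport kinesins were thus marked at shares whose intervals overlap widely in both lists. The mitotic count was higher in KO (12 and 10 of 15) and the transport count in WT (11 and 12 of 15), and each of these differences rests on 1 or 2 genes. Among marked genes, the median of the best −log10 q in the KO list was 16.3 for mitotic and 9.58 for transport kinesins, against 10.5 for all marked genes. In the WT list it was 7.83 for mitotic and 9.12 for transport kinesins, against 9.39 for all marked genes. Taken over every gene-end summit instead, the KO median was 7.50 for mitotic and 9.05 for transport kinesins, against 8.70 for all. The WT median was then 4.97 for mitotic and 7.70 for transport kinesins, against 7.80 for all. The order of the classes in KO thus depends on which summits are counted. Scores rank summits within a list, so these medians do not measure a change between genotypes. With a q of 1e-05 or less, 11 mitotic kinesins were marked in KO and 7 in WT, against 10 transport kinesins in each list. At that cutoff 44.5% of all genes were marked in KO and 39.7% in WT.

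**Figure D3:**
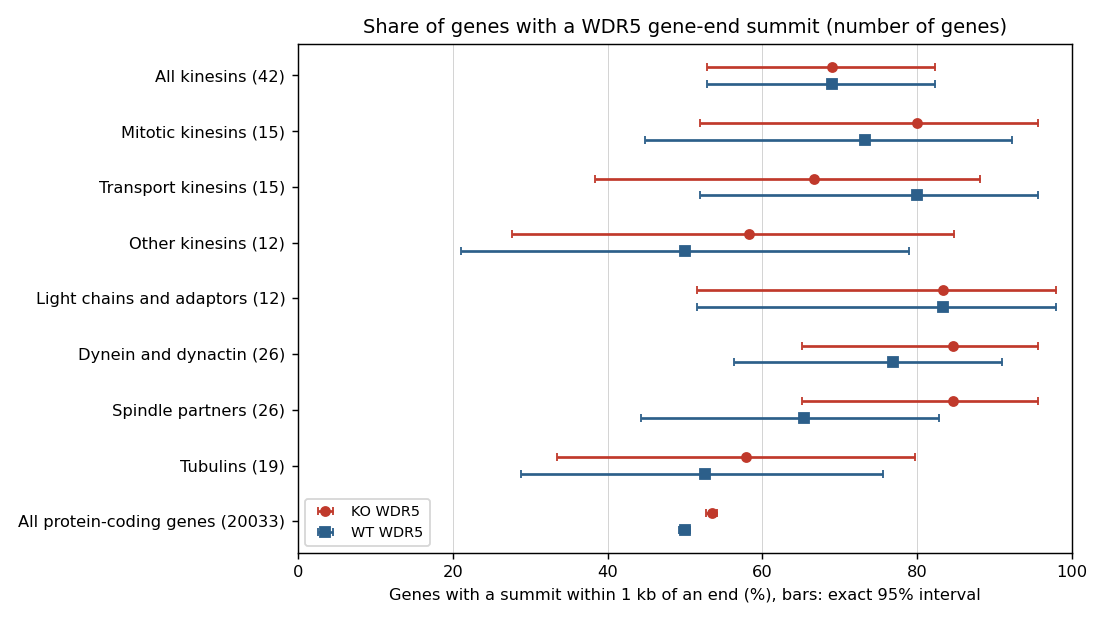
Percent of genes with a WDR5 summit within 1 kb of an end in KO (circles) and WT (squares), for the kinesins, their classes, other motor and spindle gene lists and all protein-coding genes. Bars are exact 95% intervals, number of genes in brackets. The intervals of the mitotic and transport kinesins overlap in each list, and all protein-coding genes lie at 53.4% in KO and 50.0% in WT.

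At the stricter q, 6 kinesins were marked in KO alone (14.3%, 5.43 to 28.5%), against 9.55% of all genes. They were the mitotic genes KIF2C, KIF15, KIF20A and KIF20B, together with KIF21B and KIF26A. KIF20A counted only through the KO summit 770 bp outside it, which lay nearer to BRD8 (288 bp). The KO summit inside KIF20A (3.39) fell below the cutoff. At the same q 0 kinesins were marked in WT alone, which allows a share of up to 7.14%, against 4.78% of all genes. EMBOW-F marked 0 kinesins at this q, against 0.190% of all genes, and 21 were marked in both WDR5 lists, against 34.9%. KIF15, KIF20A, KIF20B and KIF26A had a WT summit below this cutoff, so the stricter q removed a WT call at each of them. The WT summits of KIF3C and KIF13B also fell below it, and neither gene then counted as marked in any list.

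Where a kinesin was marked in both genotypes, the summits lay close together. For each of the 27 genes the closest KO and WT summits were 1 to 379 bp apart, with a median of 54 bp, and for 12 genes at most 50 bp. Of 43 KO gene-end summits at kinesins, 35 had a WT summit within 500 bp (81.4%, 66.6 to 91.6%), against 75.1% of all KO gene-end summits. Of 45 WT gene-end summits, 35 had a KO partner (77.8%, 62.9 to 88.8%), against 82.0% of all WT gene-end summits. Both kinesin intervals contain the share of all gene-end summits.

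Of all kinesin gene-end summits, 31 of 43 in KO and 29 of 45 in WT lay inside the gene, and 12 in KO and 16 in WT lay outside it. The promoter table gave a strand for 34 kinesins, and in KO 25 of these were marked at the 5′ end (73.5%) and 2 at the 3′ end (5.88%), against 54.2% and 3.79% of all genes with a strand. In WT the counts were also 25 and 2, against 50.9% and 3.16% of all such genes. The best KO summit lay a median of 235 bp downstream of the 5′ end of the kinesins, against 191 bp for all genes, and 21 of 25 (84.0%) lay downstream, against 77.2% for all genes. In WT the median was 187 bp, against 191 bp for all genes, and 20 of 25 (80.0%) lay downstream, against 77.9% for all genes. Both shares of the kinesins are near those of all genes. KIF22 and KIF17 supplied the 3′ counts, next to MAZ and DDOST.

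**Figure D4:**
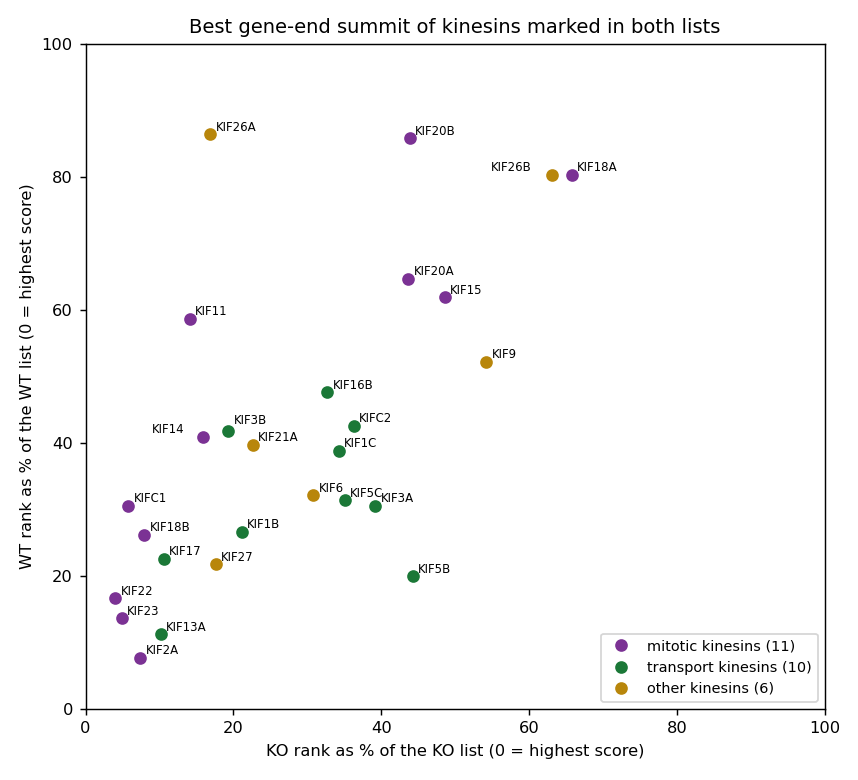
Rank of the best gene-end summit as a percent of its list, KO on the x axis and WT on the y axis (0 is the highest score), for the 27 kinesins marked in both lists, coloured by class. KIF2A, KIF22, KIF23 and KIF13A lie nearest the high-score corner. Ranks order summits within a list and do not measure a change.

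Tagged EMBOW was not called at kinesin genes. No EMBOW-F summit lay within 5 kb of an end of any of the 42 genes or inside one of them, against 3.63% of all genes with one within 5 kb of an end and 4.63% with one more than 1 kb inside. The median distance from a kinesin gene end to the nearest EMBOW-F summit was 1508 kb, against 1548 kb for all protein-coding genes. KIF2B at 21099 bp, KIF20B at 44325 bp and KIF21A at 86869 bp were the 3 nearest, and these were the kinesins within 100 kb of one (7.14%), against 13.1% of all genes. For KIF2A the nearest EMBOW-F summit lay 269294 bp away.

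The authors' deposited table of transcripts called new EMBOW-dependent WDR5 targets held 16 transcripts that overlap a kinesin gene, on its own strand where that is known. In the authors' deposited table these were 8 transcripts of KIF12, 5 of KIF21B and 3 of KIF26A. The 5′ ends of the KIF12 transcripts in the authors' deposited table lay 153 to 5638 bp from the nearest KO summit, against 57060 to 63901 bp from the nearest in WT. Those of KIF21B in the authors' deposited table lay 243 to 17575 bp from a KO summit, against 114291 to 132415 bp from one in WT. Those of KIF26A in the authors' deposited table lay 82 to 371 bp from a KO summit, against 597 to 1536 bp from one in WT. The authors' deposited table held no transcript of KIF2A, KIF2B or KIF2C. Counting 5′ ends of any gene in the authors' deposited table, 6 of 42 kinesins had one within 1 kb of an end (14.3%, 5.43 to 28.5%), against 10.3% of all genes. The authors' deposited table was drawn from these samples, so it is not independent of the summit lists.

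Promoter letters were searched in the 34 kinesins with a tabulated promoter, and no test of the counts was made. The CHR, a site of the DREAM and MuvB complexes that repress and activate cell cycle genes, was searched as TTTGAA on both strands of the 300-base windows. It was found in 10 of 15 mitotic kinesin promoters, against 1 of 11 transport promoters, 0 of 8 other kinesin promoters and 12.1% of 15859 protein-coding promoters. The 10 were KIF4A, KIF4B, KIF11, KIF14, KIF15, KIF18A, KIF18B, KIF20B, KIF23 and KIFC1, and the transport gene was KIF5B. The CHR and a CCAAT match of KIF4A and KIF4B lie in the stretch that aligned between their windows (93.8% the same). These genes are therefore not separate cases in the counts, and in KIF4B the CHR lies just after the start site. The CCAAT box, which NF-Y binds, was found in 11 mitotic, 3 transport and 3 other kinesin promoters, against 36.4% of all. In the printed KIF23 promoter the CCAAT match, read on the opposite strand, starts 64 bases before the start site and the CHR 55 bases before it. The GC box GGGCGG was found in 30 of the 34 kinesin promoters, against 58.5% of all, and it was common in each class, with 13 of 15 mitotic, 9 of 11 transport and 8 of 8 other promoters. The E2F-like TTTNNCGC was found in 3 mitotic, 0 transport and 2 other promoters, against 8.86% of all. The E-box CACGTG, which MYC and MAX bind, was found in 0 of 34, against 8.88% of all. A count of 0 allows 3 of 34, which is close to that share. The TATA box, searched as TATAAA, was found in 2 of 34, against 9.62% of all. These were KIF2B and KIF4B, and the matches are not capitalised in the printed windows. Both matches lie nearer the upstream edge of the window than the start site. KIF2A and KIF2C had GC boxes and none of the other 5 motifs. These matches are letters in a window and show no binding. KO summits fell inside 0 of the 34 windows, against 4.54% of all, and WT summits inside 1, that of KIF3C, against 4.16%. The 0 in KO again allows 3 of 34, which is above the share of all promoters.

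Genes whose products work with the kinesins were counted in the same way, beside 53.4% of all genes in KO and 50.0% in WT. Of 26 spindle partners of the mitotic kinesins, 22 were marked in KO (84.6%, 65.1 to 95.6%) and 17 in WT (65.4%, 44.3 to 82.8%). AURKA and AURKB (the Aurora kinases), TPX2 and MAPRE1 (spindle assembly and microtubule end-binding proteins) and SKA2 (kinetochores) had a summit in KO alone, which is 19.2% (6.55 to 39.4%) against 6.99% of all genes. In WT alone 0 of 26 had one, which allows a share of up to 11.5%, against 3.51% of all genes. At a q of 1e-05 or less 5 were marked in KO alone (19.2%), against 9.55% of all genes. At that q 2 were marked in WT alone (ECT2 and PSRC1, 7.69%), against 4.78%. With a 2 kb window 4 were marked in KO alone (15.4%), against 6.58% of all genes. That window left 1 in WT alone (SPAG5, 3.85%), against 2.94%. CEP170, a centrosomal protein that binds kinesins, had the highest KO rank of the list, 367 in KO and 377 in WT. The SKA2 gene had a WT summit 1220 bp from an end, just outside the window.

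Dynein and dynactin genes, which encode the minus-end motor and its activator, were marked in 22 of 26 cases in KO (84.6%, 65.1 to 95.6%) and in 20 in WT (76.9%, 56.4 to 91.0%). The dynein light chain gene DYNLL1 led with rank 333 in KO and 825 in WT. DYNC1I2, DYNLRB1 and DYNLT3 had a summit in KO alone (11.5%, 2.45 to 30.2%), against 6.99% of all genes. DCTN3 had one in WT alone (3.85%, 0.0973 to 19.6%), against 3.51%. With a 2 kb window these counts stayed at 3 and 1, against 6.58% and 2.94% of all genes. At a q of 1e-05 or less DYNC1I2 and DYNLRB1 were marked in KO alone (7.69%), against 9.55% of all genes. At that q DCTN2, DCTN3 and DCTN4 were marked in WT alone (11.5%), against 4.78%. Among 12 kinesin light chains, adaptors and kinesins named otherwise, 10 were marked in KO and 10 in WT. KLC2, a light chain, led in KO at rank 3036, and it ranked 13851 in WT. MAPK8IP1, a scaffold that binds light chains, was marked in KO alone (8.33%, 0.211 to 38.5%), against 6.99% of all genes. The light chain gene KLC3 was marked in WT alone (8.33%, 0.211 to 38.5%), against 3.51%. CENPE, a kinetochore kinesin, was marked in both lists, and KIFAP3 in neither. Of 19 tubulin genes, 11 were marked in KO (57.9%, 33.5 to 79.7%) and 10 in WT (52.6%, 28.9 to 75.6%), and TUBA1B led with rank 991 in KO and 1801 in WT. TUBA4A, TUBB4A and TUBB8 had a summit in KO alone (15.8%, 3.38 to 39.6%), against 6.99% of all genes. TUBB3 and TUBG2 had one in WT alone (10.5%, 1.30 to 33.1%), against 3.51%. The KO summit of TUBA4A was weak, with a −log10 q of 1.49 (rank 20827). With a 2 kb window TUBA4A and TUBB3 were marked in both lists. That window left TUBB4A and TUBB8 in KO alone (10.5%), against 6.58% of all genes, and TUBG2 in WT alone (5.26%), against 2.94%.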

How the data were processed

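WDR5 in EMBOW KO and WT cells and tagged EMBOW were measured by ChIP-seq with 1 library each. The submitters' processing notes name hg38, MACS2 2.2.7.1, Bowtie2 2.4.5 and deepTools 3.5.1, and give no roles. In the deposited lists each line is a position of 1 bp with a value read here as −log10 q, since every list starts just above 1.30 (a q-value of 0.05). The control used and any pooling are not given in the sources used here. Without read counts the depth is unknown, and it can change how long a list is. EMBOW-F was matched to the FLAG precipitation because no other sample in the labels is a ChIP of tagged EMBOW. The authors' deposited table of 18665 transcripts was attached to an input sample, and 1 cut chromosome name in it was repaired. The H3K4me3 and input samples were not analysed here.

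Gene positions came from RefSeq (GRCh38.p14), with strand and promoters where its promoter table holds the gene (34 of 42 kinesins). Exons and introns were not assigned. A summit within 1 kb of either gene end marked the gene, and summits within 500 bp of each other were partners. Tied scores share the best rank. Shares have exact Clopper-Pearson 95% intervals, which cover counting error only, and a count of 0 allows 3 counts. No test was made, as there is 1 library per group.

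The kinesins, their classes and the other gene lists were chosen with earlier results of these data known. The genes named were the KIF2 genes, all mitotic kinesins, those marked in a single genotype, the 5 highest-ranked in each list, those nearest the window's edge or an EMBOW-F summit, and, in the other lists, the leading gene and those marked in a single genotype. Other kinesins are given for completeness, and the motifs were chosen from background knowledge. Alternatives were the window, the q cutoff, lists of equal length, the 5′ end alone, the nearest gene alone and the partner distance. The marking step was tested on simulated data. Scripts ran in Python 3.11.15 with pandas 2.3.3, numpy 2.4.6, matplotlib 3.10.9 and scipy 1.17.1.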

Additional observations from a re-analysis of the deposited data

How the results depend on the processing

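The numbers of kinesins marked in KO, in WT, in both and in EMBOW-F stayed within 1.5 times of the reported counts under all 8 alternatives tried. The counts marked in a single genotype are small and moved. Kinesins marked in KO and not in WT numbered 5 with a 500 bp window, against 9.06% of all genes. They numbered 6 with a q of 1e-05 or less, against 9.55%, and 1 at the 5′ end alone, against 5.48%. When a summit counted only for the nearest gene they numbered 4, against 7.78% of all genes. Those marked in WT and not in KO numbered 0 with a q of 1e-05 or less, against 4.78% of all genes. At the 5′ end alone they numbered 1, against 2.89%. Mitotic kinesins marked in WT fell to 7 with the stricter q, which drops weak summits. Other kinesins marked in KO fell to 4 at the 5′ end alone, which can be placed for 34 of the 42 genes. KO kinesin summits with a WT partner made up 65.1% at 200 bp and 97.7% at 5 kb. WT kinesin summits with a KO partner made up 62.2% at 200 bp, 88.9% at 1 kb, 95.6% at 5 kb and 96.2% with the stricter q in both lists. With both lists shortened to 17660 summits, 29 kinesins were marked in KO and 29 in WT, and the same 4 genes were marked in a single genotype. No paired analysis was possible because each group has 1 library and no result comes from a test.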

Other observations

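WDR5 summits also lay inside kinesin genes, more than 1 kb from both ends. In KO 13 of the 42 genes (31.0%, against 20.5% of all genes) held 19 such summits, or 4.87 per Mb of gene, against 4.83 per Mb over all protein-coding genes. In WT 15 kinesin genes (35.7%, against 16.6% of all genes) held 17, or 4.36 per Mb, against 3.69 per Mb over all genes. The kinesin genes are longer, with a median of 56.1 kb against 24.1 kb for all genes. KIF25, which was not marked at its ends, held 3 KO summits and 2 WT summits, and the KO and WT summits at chromosome 6, 168024773, fell on the same base. KIFC3 held a KO summit with a −log10 q of 9.17 and a WT summit of 4.92, 54 bp apart and 44051 bp from an end in KO. KIF11 had a KO and a WT summit 34 bp apart, 2110 and 2144 bp inside the gene, beside those at its 5′ end.

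Several of the genes marked in KO alone lie on chromosome 20. Of the 7 kinesin, spindle, dynein and tubulin genes there, 4 were marked in KO alone (57.1%, 18.4 to 90.1%), namely AURKA, TPX2, MAPRE1 and DYNLRB1. KIF3B and KIF16B were marked in both lists and TUBB1 in neither. On the other chromosomes 10 of 118 such genes were marked in KO alone (8.47%, 4.14 to 15.0%). Over all protein-coding genes the share was 7.26% on chromosome 20 (39 of 537) and 6.98% elsewhere. The grouping of these 4 genes was noticed after their values were seen. The intervals above therefore do not measure how unusual the grouping is, and its cause was not tested.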
